A study of Oreochromis niloticus with 8 samples.

Results

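The genes described here are safb2, ppp1r10 and sltm, which encode nuclear regulators of transcription and RNA processing. They were chosen by name: the rule listed 4 gene names (safb2, ppp1r10, safb and sltm), 3 of which matched a row among the 29533 genes of the midbrain tables, and safb was not analysed here. The rule was written with the change of safb2 and ppp1r10 in cold already known, so the difference of the members between cold and control is given as a description with no test. RNA sequencing of polyadenylated RNA measured 8 midbrain libraries of Nile tilapia (Oreochromis niloticus), a warm-water cichlid. The control group held 4 libraries from fish maintained at normothermy, and the cold group held 4 libraries from cold-exposed fish. The labels name no strain, age, sex, temperature or length of exposure, and they do not say whether a library came from 1 fish, so the p-values below cover library-to-library spread, which may be technical. The series is titled for oxytocin signalling under cold stress, and the comparison asks which midbrain transcripts differed after cold.

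SAFB proteins (scaffold attachment factor B) are nuclear proteins that bind DNA at scaffold or matrix attachment regions through a SAP domain and bind RNA through an RNA recognition motif. In mammalian cells they act as transcriptional corepressors, of the estrogen receptor among others, and bind serine/arginine-rich (SR) splicing factors and their kinases. SLTM, the SAFB-like transcription modulator, is a member of the same family. The gene ppp1r10 encodes PNUTS, a regulatory subunit that holds protein phosphatase 1 (PP1) in the nucleus in a complex with WDR82 and TOX4. In mammalian cells PNUTS and PP1 remove phosphates from RNA polymerase II and from the elongation factor SPT5, which slows the polymerase at the ends of genes and aids termination.

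The row named safb2 was the member with the highest level in control and the one with the largest difference. All levels are TPM, which adjust for the length of each gene and for the total of each library and so can be compared between genes. The level of safb2 in control libraries 1 to 4 was 460.4, 414, 456 and 427 TPM. In cold libraries 1 to 4 it was 80.7, 83.0, 96.8 and 99.4 TPM. The groups did not overlap: the lowest control library was 4.17 times the highest cold library. The mean was 439 ± 22.5 TPM in control and 89.99 ± 9.51 TPM in cold (SD, n = 4 per group), so that the cold mean was 20.5% of the control mean. On the log2(TPM + 1) scale, where a pseudocount of 1 was added and which understates the change of low genes, the change was -2.28 ± 0.08 (SE, cold minus control).

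Among all genes of a library ordered by level, safb2 stood between places 302 and 325 in control and between places 1504 and 1876 in cold. Of the 18863 genes tested (those averaging 1 TPM or more in control or in cold), 14 had a lower log2 change. The tested genes included 1551 with a control mean of at least 100 TPM, and 1 of these had a lower log2 change than safb2. That gene, ansn, named after its values were seen, had means of 549 TPM (control) and 181 TPM (cold), with an SE of 1.54 on its log2 change of -3.57. The cut was on the control mean only, and the cold mean of safb2 (89.99 TPM) lay below it. Since safb2 was also chosen on its change, nothing is read from its place among these genes. The symbol safb2 was not matched in RefSeq's gene table for assembly O_niloticus_UMD_NMBU, which holds a gene called safb, and whether both names stand for the same locus was not settled. Reads of a near-identical family member could have been divided between rows in the counting, so the level of a single row is uncertain.

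The level of ppp1r10 was lower than that of safb2 in every library and showed the same separation. In control libraries 1 to 4 it was 37.0, 34.2, 35.1 and 35.97 TPM. In cold libraries 1 to 4 it was 7.54, 8.53, 8.18 and 8.44 TPM. The lowest control library was 4.01 times the highest cold library. The mean was 35.6 ± 1.18 TPM in control and 8.17 ± 0.446 TPM in cold (SD, n = 4 per group). The log2 change was -2.0 ± 0.06 (SE), and the cold mean was 22.97% of the control mean. Its place by level was between 4522 and 4740 in control and between 11483 and 11989 in cold, and 21 tested genes had a lower log2 change.

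The family member sltm did not show this separation. Its level in control libraries 1 to 4 was 122, 106, 107 and 98.0 TPM. In cold libraries 1 to 4 it was 86.7, 92.2, 98.6 and 106 TPM. The groups overlapped, since cold 3 and cold 4 lay above control 4. The mean was 108 ± 9.79 TPM in control and 95.9 ± 8.41 TPM in cold (SD, n = 4 per group), and its log2 change was -0.17 ± 0.08 (SE). Its place by level was between 1278 and 1563 in control and between 1393 and 1739 in cold. Over all tested genes the log2 change had a median of -0.09 and quartiles of -0.34 and 0.14, so the value of sltm lay within the middle range of all genes.

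**Figure D1:**
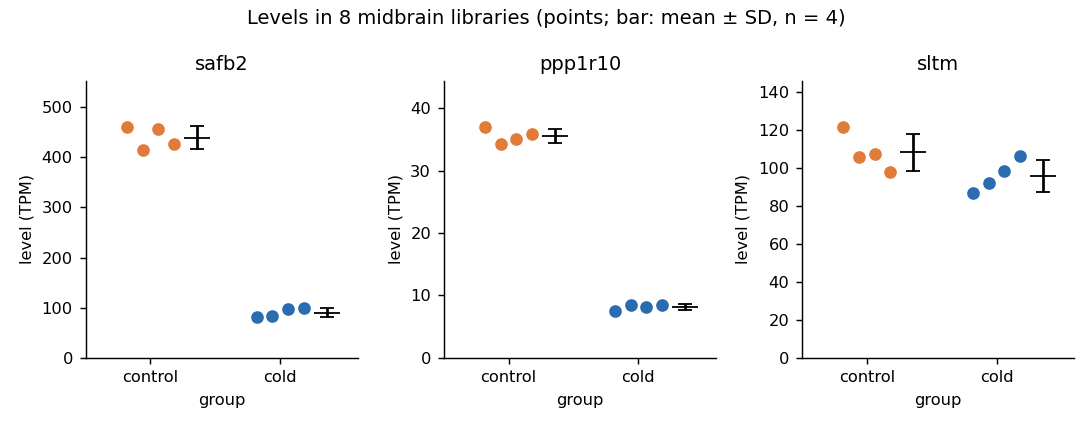
Level in TPM (vertical axis, from 0) of safb2, ppp1r10 and sltm in the 4 control and 4 cold libraries, drawn in order of replicate number, with the group mean and SD beside the points. The cold libraries of safb2 (80.7 to 99.4 TPM) and ppp1r10 (7.54 to 8.53 TPM) lay below every control library, while the groups of sltm overlapped.

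Group values did not overlap for 2 of the 3 members, beside 36.9% of all tested genes in either direction and 23.4% that were lower in cold. Because safb2 and ppp1r10 were chosen on this contrast, nothing is read from that count.

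**Figure D2:**
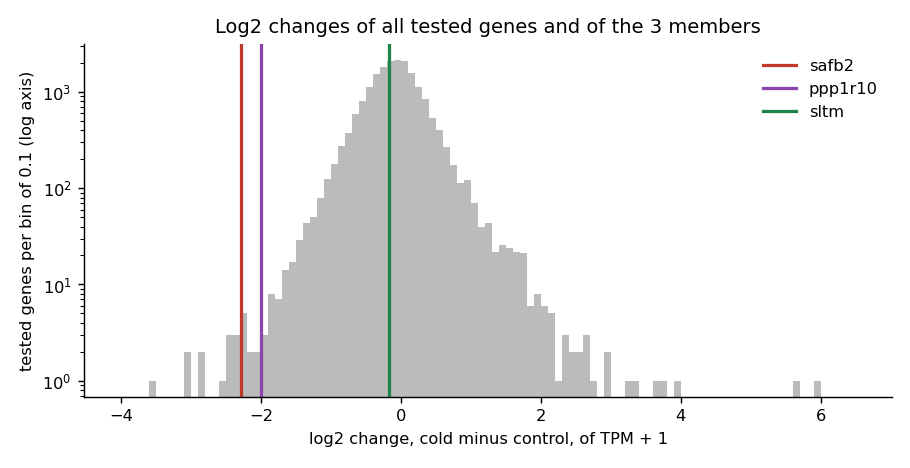
Number of tested genes (vertical axis, logarithmic) in bins of log2 change of TPM + 1, cold minus control (horizontal axis), with lines at the 3 members. The lines of safb2 (-2.28) and ppp1r10 (-2.0) stand in the thin left tail and that of sltm (-0.17) near the median of -0.09.

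The spread of the members within a group was small for ppp1r10. Its coefficient of variation was 3.32% in control and 5.46% in cold. Among genes whose mean was within 2-fold of its own, 89.9% of 5938 genes in control and 91.2% of 5867 genes in cold varied more. The coefficient of variation of safb2 was 5.12% in control, where the median of 469 genes of similar level was 6.14%. In cold it was 10.6%, where the median of 2708 genes was 7.60%, with cold 1 and cold 2 below cold 3 and cold 4. That of sltm was 9.04% in control and 8.77% in cold, above the medians of genes of similar level. These medians were 6.26% of 2312 genes in control and 7.56% of 2558 genes in cold.

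Ratios within a library show how the members stood to each other and to their partners, and they do not depend on how a library is scaled. The ratio of safb2 to sltm was 3.79, 3.90, 4.25 and 4.35 in control libraries 1 to 4. It was 0.931, 0.900, 0.982 and 0.936 in cold libraries 1 to 4. The order of these family members by level was therefore turned: safb2 lay above sltm in every control library and below it in every cold library. The cold levels were close to equal, and the level of the safb2 row is uncertain, so the order in cold is uncertain too. The mean ratio was 4.07 ± 0.271 in control and 0.937 ± 0.0337 in cold (SD, n = 4 per group). Because safb2 was chosen on its change, the size of this turn is a description.

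The ratio of safb2 to ppp1r10 changed little beside the drop of both genes. It was 12.4, 12.1, 13.0 and 11.9 in control libraries 1 to 4 and 10.7, 9.74, 11.8 and 11.8 in cold libraries 1 to 4. The means were 12.4 ± 0.492 and 11.01 ± 0.9998 (SD, n = 4 per group). The highest cold values, in cold 3 and cold 4, came close to the lowest control value, in control 4.

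PNUTS works with WDR82, a WD-repeat protein, and with TOX4, an HMG-box protein that binds DNA, and it holds the catalytic subunits of PP1. The gene wdr82 rose in cold, opposite to ppp1r10. Its level in control libraries 1 to 4 was 39.5, 37.0, 35.5 and 34.8 TPM, and in cold libraries 1 to 4 it was 45.3, 48.1, 47.3 and 53.2 TPM. All cold libraries lay above all control libraries, with a log2 change of 0.39 ± 0.07 (SE) and an adjusted p of 0.00223 by limma with Benjamini-Hochberg adjustment over all tested genes. The ratio of ppp1r10 to wdr82 was 0.935, 0.925, 0.988 and 1.03 in control libraries 1 to 4. It was 0.167, 0.177, 0.173 and 0.159 in cold libraries 1 to 4, so near-equal levels in control stood against a mean of 0.169 ± 0.00818 in cold (SD, n = 4). Because ppp1r10 was chosen on its change, the separation of this ratio largely follows from that choice and is a description.

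The genes of the PP1 catalytic subunits moved in different directions. The gene ppp1cab rose from 79.4 ± 5.72 to 95.5 ± 1.18 TPM (SD, n = 4 per group; log2 change 0.27 ± 0.06, limma adjusted p = 0.00658). The gene ppp1cc fell from 149 ± 7.65 to 118 ± 11.9 TPM (log2 change -0.34 ± 0.08, adjusted p = 0.00751 by limma). The copy ppp1caa measured 75.6 ± 5.61 and 75.2 ± 6.02 TPM in control and cold (limma adjusted p = 0.945). The TOX4 copies tox4a (13.5 ± 0.232 and 14.96 ± 1.26 TPM) and tox4 (9.01 ± 0.595 and 9.62 ± 1.32 TPM) did not pass, with limma adjusted p of 0.165 and 0.569, though tox4a passed as higher after rescaling by the median of ratios (adjusted p = 0.0397). The catalytic subunit gene ppp1cb was also listed but matched no row, so it is missing from the sum used next. The ratio of ppp1r10 to the summed level of the 3 matched catalytic subunit genes was 0.117 ± 0.00533 in control and 0.0284 ± 0.00141 in cold (SD, n = 4 per group). This ratio too is a description, since ppp1r10 was chosen on its change.

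**Figure D3:**
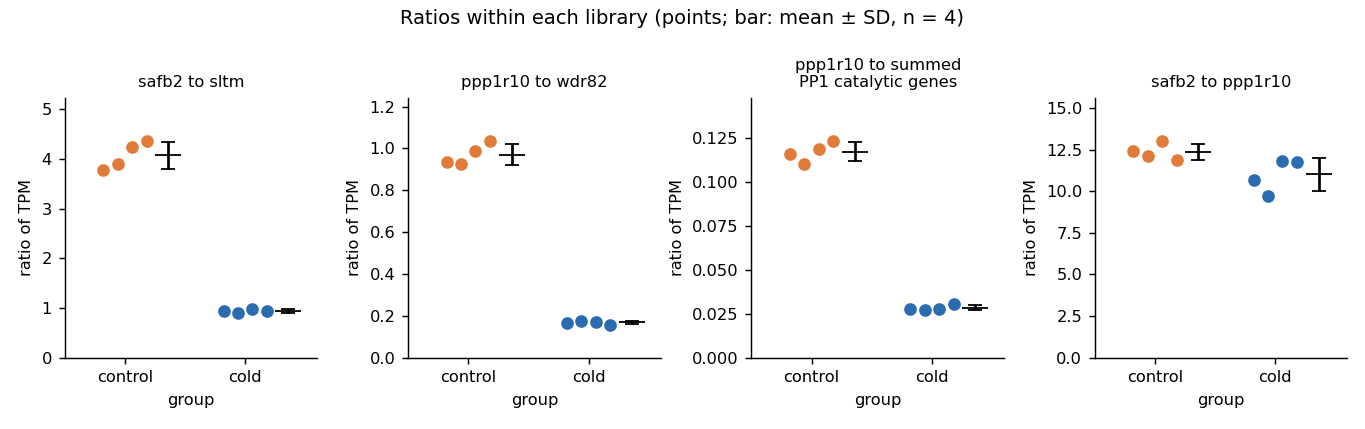
Ratios of TPM within each library (vertical axes, from 0) for safb2 to sltm, ppp1r10 to wdr82, ppp1r10 to the summed PP1 catalytic subunit genes, and safb2 to ppp1r10, in 4 control and 4 cold libraries, with mean and SD. The sum covers ppp1caa, ppp1cab and ppp1cc, without ppp1cb. All 4 ratios were lower in every cold library than in every control library, by a narrow gap for safb2 to ppp1r10, whose means were 12.4 in control and 11.01 in cold. Because safb2 and ppp1r10 were chosen on their change, the separation of their ratios to other genes largely follows from that choice.

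Across all genes limma called 36.7% of 18863 tested genes at an adjusted p under 0.05, 13.0% as higher and 23.6% as lower in cold, and the counts of list members below are to be read beside that share. Of the called genes 64.5% were lower in cold, and 50.6% after rescaling by the median of ratios, so splits between rises and falls depend on the scaling. In the list of PNUTS complex genes other than ppp1r10, 3 of 6 tested genes were called, 2 higher and 1 lower, with a median log2 change of 0.11 (-0.09 over all tested genes).

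Other nuclear regulators of PP1 were called at a share near that of all genes. Of 8 tested, 1 rose and 2 fell (37.5% called), with a median log2 change of -0.08. The gene ppp1r8, which encodes the nuclear PP1 inhibitor NIPP1, fell from 15.4 ± 1.48 to 10.9 ± 0.168 TPM (SD, n = 4 per group; log2 change -0.46 ± 0.08, limma adjusted p = 0.00211). The inhibitor gene ppp1r2 fell from 49.9 to 42.5 TPM (adjusted p = 0.0112 by limma; 0.0568 after median-of-ratios rescaling). The gene ppp1r26 rose from 8.56 to 10.96 TPM (limma adjusted p = 0.0237), a call lost when control 2, control 3, cold 2, cold 3 or cold 4 was left out (adjusted p from 0.0530 to 0.0596).

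The remaining 5 did not pass. Mean levels in control and cold were 97.5 and 93.3 TPM for ppp1r7, which encodes the PP1 regulator SDS22, and 42.3 and 39.6 TPM for ppp1r11, which encodes inhibitor 3. They were 1.70 and 1.117 TPM for mki67, the proliferation marker Ki-67, which passed as lower without cold 4 (limma adjusted p = 0.0482). They were 8.46 and 9.29 TPM for rrp1 and 16.5 and 15.8 TPM for uri1. Their limma adjusted p lay between 0.128 for mki67 and 0.633 for uri1.

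Among genes of proteins reported to bind PNUTS or to be acted on by PNUTS and PP1 in mammalian cells, the transcription factor gene myc had means of 12.4 ± 1.07 TPM (control) and 13.7 ± 1.99 TPM (cold), and the retinoblastoma gene rb1 had means of 8.38 ± 0.827 and 8.35 ± 0.594 TPM (SD, n = 4 per group). Neither passed (limma adjusted p = 0.373 and 0.980).

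**Figure D4:**
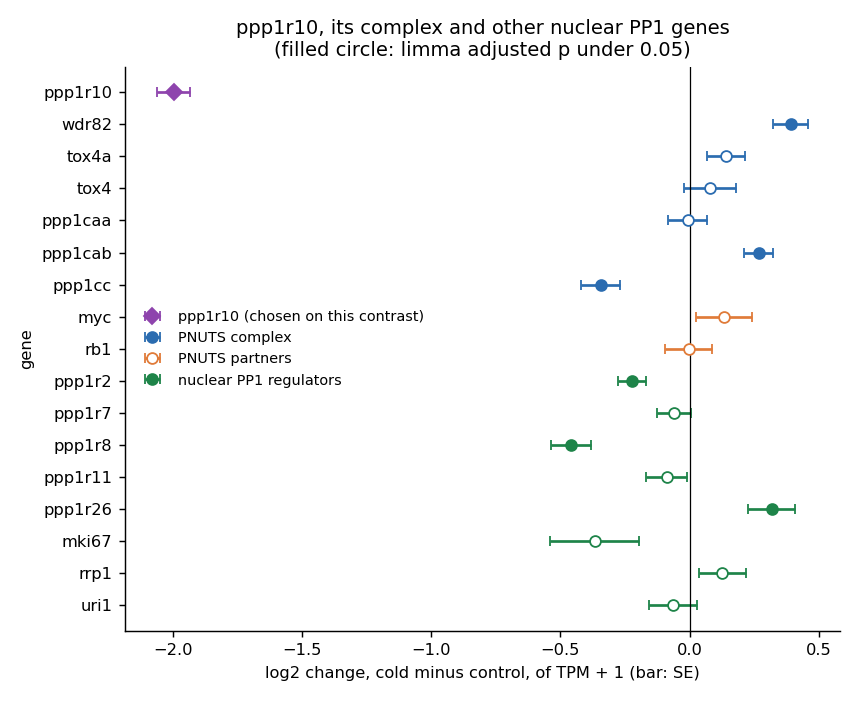
Log2 change of TPM + 1, cold minus control, with SE (horizontal axis) for ppp1r10, the other genes of its complex, genes of PNUTS partners and other nuclear PP1 regulators. Circles are filled where limma's adjusted p was under 0.05. The diamond of ppp1r10, a gene chosen on this contrast, stands at -2.0, and its fill marks no call. The other genes lie between -0.46 (ppp1r8) and 0.39 (wdr82).

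The processes in which PNUTS acts showed rises and falls side by side. Of 27 tested genes of cleavage, polyadenylation and termination, 6 rose and 7 fell (48.1% called, median log2 change 0.02). The calls of lowest p were those of cpsf6, a subunit gene of cleavage factor I (53.5 ± 2.79 to 34.2 ± 0.787 TPM, limma adjusted p = 7.94e-05), and rprd1a, which encodes a protein that binds the tail of RNA polymerase II (28.1 ± 0.735 to 14.003 ± 1.70 TPM, 9.30e-05), both of which fell. They were followed by clp1, a subunit gene of cleavage factor II, which rose (13.4 ± 1.21 to 21.2 ± 0.738 TPM, limma adjusted p = 0.000365), and by the poly(A)-binding protein gene pabpn1, which fell (176 ± 7.53 to 133 ± 4.77 TPM, 0.000473; SD, n = 4 per group throughout). After median-of-ratios rescaling 8 rose and 5 fell.

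Of 25 tested genes of RNA polymerase II pausing and elongation, 8 rose and 5 fell (52.0% called, median log2 change 0.14), and 12 and 3 after median-of-ratios rescaling. The largest rise was that of ccnt1, the cyclin T1 gene, from 17.3 ± 1.27 to 35.7 ± 4.05 TPM (SD, n = 4 per group; log2 change 0.997 ± 0.09, limma adjusted p = 0.000111). The gene ctr9 of the PAF1 complex (30.2 to 42.9 TPM) and the elongation factor gene supt6h (64.0 to 83.3 TPM) rose, and the kinase gene cdk12 fell (18.2 to 12.4 TPM), with limma adjusted p of 0.000453, 0.000639 and 0.000650. The gene supt5h of SPT5, a substrate of PNUTS and PP1, had a log2 change of -0.03 (limma adjusted p = 0.762), and it was named after its values were seen.

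SR proteins and their kinases, which bind SAFB proteins in mammalian cells, were lower more often than higher. Of 23 tested genes, 1 rose and 10 fell (47.8% called, median log2 change -0.12), and 5 rose and 8 fell after median-of-ratios rescaling. The splicing factor gene srsf1a measured 113, 113, 111 and 102 TPM in control libraries 1 to 4 and 54.3, 53.9, 51.0 and 54.7 TPM in cold libraries 1 to 4, a log2 change of -1.02 ± 0.05 (SE, limma adjusted p = 6.31e-06). The genes srsf2a (156 to 72.4 TPM) and tra2b (66.7 to 44.2 TPM), which encode further splicing regulators, also fell. Their relatives srsf2b (73.2 and 75.8 TPM) and tra2a (59.95 and 55.3 TPM), named after their values were seen, did not pass (limma adjusted p = 0.436 and 0.263). The kinase gene clk4a fell from 488 ± 37.6 to 208 ± 44.5 TPM (SD, n = 4 per group, limma adjusted p = 0.000280).

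Genes of the nuclear scaffold and of its RNA-binding proteins were mixed. Of 15 tested, 3 rose and 6 fell (60.0% called, median log2 change -0.03). The gene taf15 of an RNA-binding protein of the FET family fell from 294 ± 10.7 to 153 ± 13.02 TPM (limma adjusted p = 3.00e-05). Other FET genes, named after their values were seen, differed in direction. Of these, fus fell (92.0 to 72.6 TPM) and ewsr1 rose (128 to 175 TPM), with limma adjusted p of 0.00399 and 0.000924. The gene hnrnpu, also known as scaffold attachment factor A, fell from 162 ± 15.1 to 107 ± 9.65 TPM (SD, n = 4 per group throughout; limma adjusted p = 0.000824). The paraspeckle gene sfpq rose from 39.1 ± 3.11 to 63.1 ± 1.89 TPM, and the lamin gene lmna rose from 8.10 ± 1.37 to 16.7 ± 0.956 TPM (limma adjusted p = 0.000119 and 0.000338). The related paraspeckle genes pspc1 and nono, named after their values were seen, did not rise with sfpq. The level of pspc1 fell (18.6 to 12.4 TPM) and nono did not pass (61.3 and 60.1 TPM), with limma adjusted p of 0.00235 and 0.692.

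**Figure D5:**
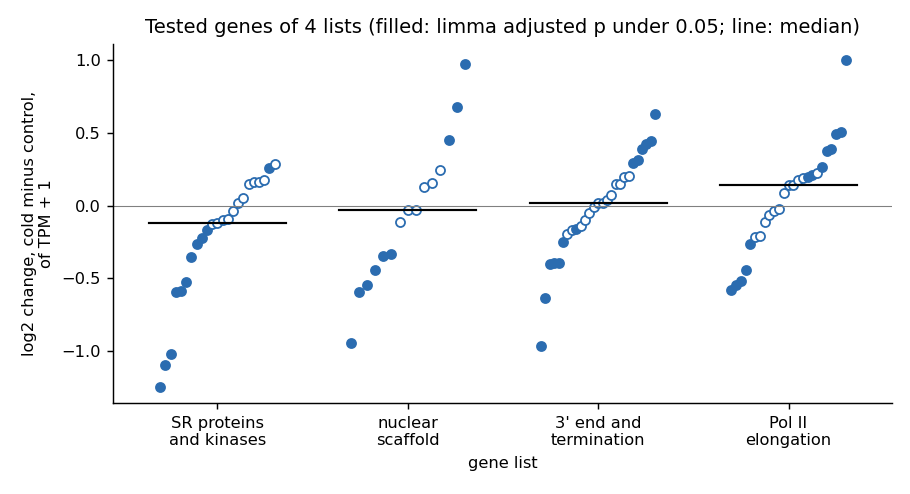
Log2 change of TPM + 1, cold minus control (vertical axis), of every tested gene in 4 lists (horizontal axis), ordered by value within a list, filled where limma's adjusted p was under 0.05, with a line at the median. Medians were -0.12 for SR proteins and kinases, -0.03 for the nuclear scaffold, 0.02 for 3′ end and termination genes and 0.14 for RNA polymerase II elongation genes.

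Other genes followed the members across the 8 libraries. Likeness was measured as Pearson's r of log2(TPM + 1) with the member, over 13250 tested genes that have a symbol and average 2 TPM or more in control or in cold. The libraries fall into 2 separated groups, so r mainly reflects the difference between cold and control and is given as a description. For safb2 the closest were pygo2, vopp1, eif5, ets1 and ints13 (r from 0.997 to 0.999), and 751 genes had an r above 0.95. For ppp1r10 the closest were c1galt1la, sumo3a, fto, zc3h4 and pygo2 (r from 0.997 to 0.999), and 701 genes had an r above 0.95. The r between safb2 and ppp1r10 was 0.997.

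These like genes had smaller changes than the members themselves, which the choice of the members largely fixed. Of all tested genes with a symbol, 5 had a lower log2 change than safb2 and 10 a lower one than ppp1r10. The translation initiation factor gene eif5 had means of 219.6 TPM (control) and 106 TPM (cold), and the transcription factor gene ets1 14.8 and 6.96 TPM. The zinc finger gene zc3h4 measured 23.7 and 9.95 TPM, and fto, which encodes an RNA demethylase, 32.3 and 14.9 TPM. Log2 changes of the 9 genes lay between -1.18 for zc3h4 and -0.53 for ints13.

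The tested neighbours of ppp1r10 in the reference gene table lay on the same side of it and were lower in cold by smaller amounts. The nearest, mrps18b, which encodes a mitochondrial ribosomal protein, fell from 57.1 ± 4.58 to 38.2 ± 1.66 TPM (SD, n = 4 per group; log2 change -0.57 ± 0.07, limma adjusted p = 0.000380). The next, abcf1, fell from 46.7 to 41.3 TPM (adjusted p = 0.0451 by limma), a call lost after median-of-ratios rescaling (0.216) and when control 1, control 2, control 3, cold 1, cold 2 or cold 4 was left out (0.0707 to 0.106). The neighbours of sltm, rnf111 (27.5 and 29.9 TPM) and mindy2 (10.7 and 11.6 TPM), did not pass (limma adjusted p = 0.376 and 0.559). The gene on the other side of ppp1r10, agr2, averaged under 1 TPM in both groups and was not tested. Beyond agr2 lay tspan13b, which was not matched to a row, and neither were myo1ea and adam10a, the outer neighbours of sltm. None of these genes overlaps ppp1r10 or sltm in that table.

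A second principal component, with 16.9% of the variance, set control 4 and cold 2 apart from the other 6 libraries. Without both, the log2 change was -2.26 for safb2, -2.01 for ppp1r10 and -0.20 for sltm. Marker genes were read for the tissue label and the cell makeup. The midbrain markers were detected, and 5 of 8 fell (median log2 change of the list -0.61). The summed level of all 8 was 88.0 to 121 TPM in control and 60.9 to 71.2 TPM in cold. Of these falls, that of gata3 (limma adjusted p = 0.0255) was lost without control 1 (0.0637), control 2 (0.0663), cold 2 (0.061) or cold 4 (0.0614). The midbrain marker with the highest level, en1b, did not pass (limma adjusted p = 0.123). Of 9 neuronal markers 2 fell, while snap25, the one with the highest level, had means of 3808 and 3798 TPM (limma adjusted p = 0.958). The summed level of all 9 was 6026 to 6568 TPM in control and 5661 to 6346 TPM in cold. Ranges of TPM in parentheses below are such sums over all rows of a list, control first. Of 7 microglial and macrophage markers 1 rose and 4 fell (1073 to 1643 and 1431 to 1576 TPM), with a median log2 change of -0.44. Their sum mostly follows apoeb, the one with the highest level, which had means of 1133 and 1330 TPM in control and cold (limma adjusted p = 0.151). The 1 rise, that of aif1l (limma adjusted p = 0.0247), was lost without control 3 (0.0688), control 4 (0.0510) or cold 3 (0.0507). Both apoeb and aif1l were named for their level and had higher means in cold. They do not stand for the 4 markers that fell, which are not named here. Leaving out libraries also added marker calls. The gene apoeb rose without control 4 (limma adjusted p = 0.00994), and the endothelial marker cldn5 fell without control 1 (0.013). The oligodendrocyte marker mpz rose without control 4 and cold 2 together (0.0481). Falls numbered 2 of 8 in each of the radial glial (7324 to 8254 and 6065 to 8224 TPM), oligodendrocyte (9532 to 13259 and 10402 to 12642 TPM) and endothelial lists (185 to 245 and 145 to 198 TPM). Of 7 hypothalamic markers 1 fell (975 to 3206 and 1154 to 6268 TPM). These sums lay above those of the midbrain markers and varied widely between libraries. The gene oxt alone ranged from 267 to 1354 TPM in control and from 384 to 4607 TPM in cold. Of 3 erythrocyte markers 0 were called by limma, and 0 had an unadjusted p under 0.05 (16.3 to 96.4 and 27.8 to 119.5 TPM). No marker list had all its rows at 0. In bulk tissue fewer cells of a type and less RNA per cell cannot be told apart, and the part of cell makeup in the values of the members was not tested. A difference between the groups in the region dissected cannot be told apart from an effect of cold, and it was not tested either.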

How the data were processed

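Polyadenylated midbrain RNA of 8 libraries was sequenced. TRIzol extraction, poly(dT) selection and a TruSeq kit are named per the labels' protocols, and HISAT2 is the 1 tool that the submitters' processing notes list. The counting program, genome build, annotation and handling of strand were not given in the sources used here. Each library has 1 list of TPM values that the authors deposited, summing to 1000000. TPM keeps no depth, which is unknown, and 17842 to 18506 genes reached 1 TPM per library. Of 19370 identifiers starting with LOC, 6153 received a symbol from the reference table of O_niloticus_UMD_NMBU, used for names and gene order only.

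Values were taken to log2(TPM + 1) and compared, cold minus control, with limma 3.58.1 (R 4.3.3, trend on, no covariates) over genes averaging 1 TPM or more in control or in cold. p was two-sided and adjusted by the Benjamini-Hochberg method over all 18863 genes, with a threshold of 0.05. The method was also run on simulated data with far fewer changed genes than were called here, so that run does not measure the error of these calls. The members, the 7 pathway lists and the 8 marker lists were chosen with earlier results of these data known, and 1 planned item of the list of PNUTS partners is not reported here. Identifiers matched a list exactly or with a copy suffix (such as a or b). All tested genes were named in lists of at most 10, and otherwise the 4 called genes of lowest p, the 5 most like safb2 or ppp1r10, the neighbours of the members and the leading markers. Naming family members by product description could not be applied, since the table holds no descriptions. Sequences are not shown. Alternatives were other pseudocounts (0.1 and 0.5), no filter, median-of-ratios rescaling, the robust option, a replicate block and leaving out libraries.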

Additional observations from a re-analysis of the deposited data

Results flagged for a closer look

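No library of safb2, ppp1r10 or sltm, and none of their ratios, stood far from the rest of its group. Among the other genes named here, 7 groups of 4 libraries held 1 library whose gap to the nearest of the others exceeded Dixon's critical share of the group's range, of 136 groups screened, and chance flags about 1 in 20 groups. They were srsf1a in control 4 (102 TPM, others 111 to 113 TPM), srsf2a in cold 4 (79.9 TPM, others 68.8 to 70.5 TPM) and myc in control 2 (10.8 TPM, others 12.7 to 13.1 TPM). Among markers they were mpz in cold 2 (1416 TPM, others 1626 to 1644 TPM), alas2 in cold 4 (85.0 TPM, others 19.1 to 29.4 TPM), and slc4a1a in control 2 (23.2 TPM, others 1.29 to 4.95 TPM) and cold 4 (27.01 TPM, others 3.92 to 7.80 TPM).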

How the results depend on the processing

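The log2 changes of safb2, ppp1r10 and sltm kept their sign under each alternative run. For safb2 and ppp1r10 the groups lay so far apart that these runs could hardly turn it, so nothing is read from that. Leaving out 1 library, or control 4 and cold 2 together, gave ranges of -2.33 to -2.23 for safb2, -2.02 to -1.96 for ppp1r10 and -0.22 to -0.12 for sltm. The value of ppp1r10 moved by more than the within-group SD of its log2 values (0.0603) to -1.92 after median-of-ratios rescaling, and to -2.11 and -2.06 with pseudocounts of 0.1 and 0.5, the last by barely more. The values of safb2 and sltm moved by less than theirs (0.119 and 0.126). The count of called genes was 6914, and 5532 to 6387 with libraries left out. The counts of the lists stayed within 1.5 times under the alternatives run. No pairing by the replicate numbers of the labels was seen: the correlations of same-numbered deviations were -0.011, -0.148, 0.058 and -0.233. Such values cannot show whether same-numbered libraries were handled together. With the replicate number as a block 5642 genes were called, and ppp1r26 (limma adjusted p = 0.0636) and abcf1 (0.0915) were not. The endothelial marker cldn5, which did not pass without the block (0.0795), was lower with it (0.0296).

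Some genes that passed no test changed sign. After median-of-ratios rescaling the log2 changes were 0.071 for ppp1caa, 0.068 for rb1, 0.075 for snap25, 0.018 for ppp1r7, 0.011 for uri1, 0.0083 for mbpa and 0.0029 for s100b. Leaving out libraries gave ranges of -0.066 to 0.041 for ppp1caa, -0.043 to 0.051 for rb1, -0.040 to 0.023 for snap25, -0.13 to 0.0038 for uri1, -0.0002 to 0.13 for tox4, -0.17 to 0.0088 for mbpa, -0.15 to 0.049 for s100b, -0.024 to 0.19 for fabp7 and -0.017 to 0.19 for pecam1a. Wider ranges were -0.14 to 0.73 for alas2, -0.074 to 1.105 for slc4a1a and -0.065 to 0.91 for avp. With all libraries their log2 changes were 0.30 ± 0.54, 0.47 ± 0.75 and 0.38 ± 0.61 (SE). The cause was not tested. TPM values give no depth, so counting error is unknown.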
